A study of Mus musculus with 4 samples.

Results

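On the arrays of mouse skin treated with TCQA, short for 3,4,5-tri-O-caffeoylquinic acid, 89 of 45037 probe sets (0.198%) lay below both vehicle arrays by a set margin. The members were chosen by their values on the 4 arrays. A probe set was selected when the lower of the 2 Control values minus the higher of the 2 TCQA values was at least 0.7 on the log2 scale, a difference called the gap here. The same rule turned round, with the TCQA pair above the Control pair, held for 44 probe sets (0.0977%). Because the rule used this contrast, the lower values on the TCQA arrays are a description of the members and were not tested as a result.

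The study used male C3H mice, 8 weeks old and 5 per group, and treated their shaved back every day for 30 days, to follow hair pigmentation. The treated mice received 1% TCQA, which was first dissolved in ethanol and then diluted in water, and the control mice received the vehicle, Milli-Q water. Total RNA of the treated skin was hybridised to 4 Affymetrix mouse PM array strips, labelled TCQA 1, TCQA 2, Control 1 and Control 2, on which a group of short probes (a probe set) reports the level of a transcript. Hair was plucked from the area before the skin was taken. The labels do not tell whether an array held RNA of 1 mouse or of several, so any p-value reflects how far these arrays differ, and that spread can be technical.

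Skin holds the keratinocytes of the epidermis and hair follicle, melanocytes, and the fibroblasts and fat cells below them. TCQA is a caffeoylquinic acid, a quinic acid that carries caffeic acid esters, of a family of compounds found in many plants. Beta-catenin, the effector of Wnt signaling, takes part in the growth and pigmentation of the hair follicle, and glycogen synthase kinase 3 beta, the product of a member gene, marks it for destruction. Other member genes encode proteins of the ribosome and of translation (7 genes), of ubiquitin and SUMO conjugation and protein folding (6 genes) and of the secretory pathway and lysosome (12 genes), which make up 25 of the 57 member genes. Roles were assigned to the member genes alone, after their values were seen. No share over all genes stands beside these counts, so they do not show a role to be frequent among the members.

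The 4 arrays did not carry the same signal. Control 1 stood apart, with 522 probe sets at a log2 value of 8 or more, against 31 on TCQA 1, 23 on TCQA 2 and 26 on Control 2. Across probe sets it correlated with the other arrays at r between 0.412 and 0.413, whereas those 3 arrays correlated with each other at r between 0.884 and 0.956. The closest pair, at 0.956, was TCQA 1 with Control 2, a treated and a control array. The TCQA arrays correlated with each other at 0.886, and TCQA 2 with Control 2 at 0.884. The markers of keratinocytes had a median log2 value of 3.32 on TCQA 1 and 3.0 on TCQA 2, against 8.16 on Control 1 and 3.39 on Control 2. The medians of all probe sets lay between 2.30 and 2.55, and the keratinocyte markers of the labelled tissue exceeded them by more than 1 on Control 1 alone. Control 1 also carried the markers of skeletal muscle, at a median of 10.17, and of hepatocytes, at 7.79, for which the other 3 arrays lay between 1.81 and 3.0. No gene of the 15 marker lists was a member. Values are therefore given with and without Control 1, and the part that the state of the arrays has in them was not tested.

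The members ranged from those far brighter on Control 1 to those that the 2 Control arrays placed alike. Control 1 was the higher Control array for 83 of the 89 members (93.3%), compared with 33.01% of all probe sets. It exceeded Control 2 by 2 or more for 35 members (39.3%), against 10.7% of all probe sets. The Control arrays differed by less than 0.7 for 30 members, and the remaining 24 lay between. No share over all probe sets was counted for the 30 or the 24, so these counts do not set the members apart. For the 83 members, Control 2 was thus the lower Control value, from which the gap is taken. The median log2 fold change of the members (TCQA minus Control) was -1.67 with all 4 arrays and -0.99 without Control 1, beside 0.12 and -0.02 over all probe sets. By the rule, each member is lower by at least 0.7 in either fold change. That a difference remained without Control 1 was thus fixed by the choice of members.

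**Figure D1:**
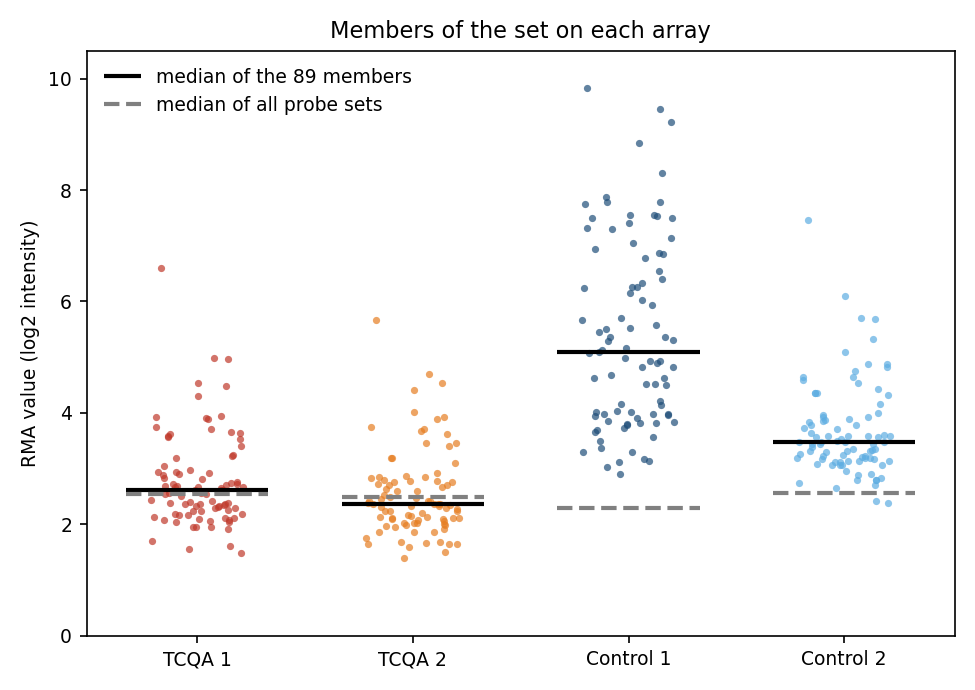
RMA value (log2 intensity, vertical axis) of the 89 members on each of the 4 arrays, with 1 point per probe set. The solid line is the median of the members and the dashed line the median of all probe sets: the members' median is 2.61 on TCQA 1 and 2.36 on TCQA 2, close to the dashed line, against 5.09 on Control 1 and 3.47 on Control 2.

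On the TCQA arrays the members sat in the middle of the array's values. Their median was 2.61 on TCQA 1 and 2.36 on TCQA 2, against 5.09 on Control 1 and 3.47 on Control 2, and the medians of all probe sets on the same arrays were 2.54, 2.49, 2.30 and 2.55. Both TCQA values lay below the array medians for 38 members (42.7%), close to the 42.4% of all probe sets. Both lay above them for 35 members, for which no share over all probe sets was counted. On Control 2, 87 members (97.8%) exceeded the array median. Over the 4 arrays the members were brighter than most, with a median mean value of 3.26 against 2.56. Of them, 44 (49.4%) were in the upper quartile of brightness. The rule needs both Control values above both TCQA values. The higher brightness and the share on Control 2 thus follow in part from the choice of members. The deposited table holds no detection calls, so it does not tell which of these values were above the background of the array.

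The member with the largest gap, 1.57, was 1436740_PM_at, which read 4.53 on TCQA 1 and 4.41 on TCQA 2, against 6.16 on Control 1 and 6.10 on Control 2. Its annotation names 3 genes, so it is given by its identifier. A second member with the same annotation, 1452997_PM_at, was the brightest of the set and read 6.61 and 5.66 on the TCQA arrays, against 7.50 and 7.47 on the Control arrays. The Control arrays differed by 0.05 for one and 0.04 for the other, so that neither value rested on Control 1. The other 5 probe sets of this annotation were not members, and their values overlapped between the groups. One of them, 1453589_PM_a_at, read 7.25 and 5.96 on the TCQA arrays, against 4.50 and 6.72 on the Control arrays.

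Of the members, 57 name a single gene, 57 different genes in all, and 30 are unnamed here, at shares (64.0% and 33.7%) near those of all probe sets (64.2% and 34.6%). The genes with the largest gaps were Rps2, Smchd1, Qk, Vma21, Cacna2d1 and Spred1. Rps2, a protein of the small ribosomal subunit, read 3.53 and 3.45 on the TCQA arrays, against 9.22 and 4.88 on the Control arrays. Its log2 fold change was -3.56 ± 1.48 (moderated SE, n = 2 arrays per group), and -1.39 without Control 1. A moderated SE, here from limma, draws in part on the spread of all probe sets. The SD of the Control values of Rps2 alone was 3.07. Smchd1, a chromatin protein needed for silencing of the inactive X chromosome, read 2.08 and 1.86 on the TCQA arrays, against 3.94 and 3.31 on the Control arrays. Its fold change, -1.66 ± 0.39 (moderated SE), was close to the -1.34 without Control 1. Rps2 and Smchd1 thus had gaps of 1.35 and 1.23 from unlike patterns, with Control arrays 4.34 apart for Rps2 and 0.63 apart for Smchd1.

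Qk, which encodes the RNA-binding protein quaking, read 3.65 and 3.09 on the TCQA arrays, against 7.14 and 4.83 on the Control arrays. Vma21, an assembly factor of the vacuolar proton pump, read 2.16 and 1.95 on the TCQA arrays, against 4.67 and 3.30 on the Control arrays. Cacna2d1, an auxiliary subunit of voltage-gated calcium channels, read 2.26 and 2.06 on the TCQA arrays, against 7.78 and 3.35 on the Control arrays. Each of these 3 genes was above 3 on both Control arrays, and the TCQA arrays differed by 0.55 for Qk and less for the others. Spred1, an inhibitor of Ras-MAPK signaling, was the dimmest member, with 1.56 and 1.40 on the TCQA arrays, against 2.91 and 2.65 on the Control arrays. All 4 of its values were near or below the medians of all probe sets, with the Control values above and the TCQA values below.

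**Figure D2:**
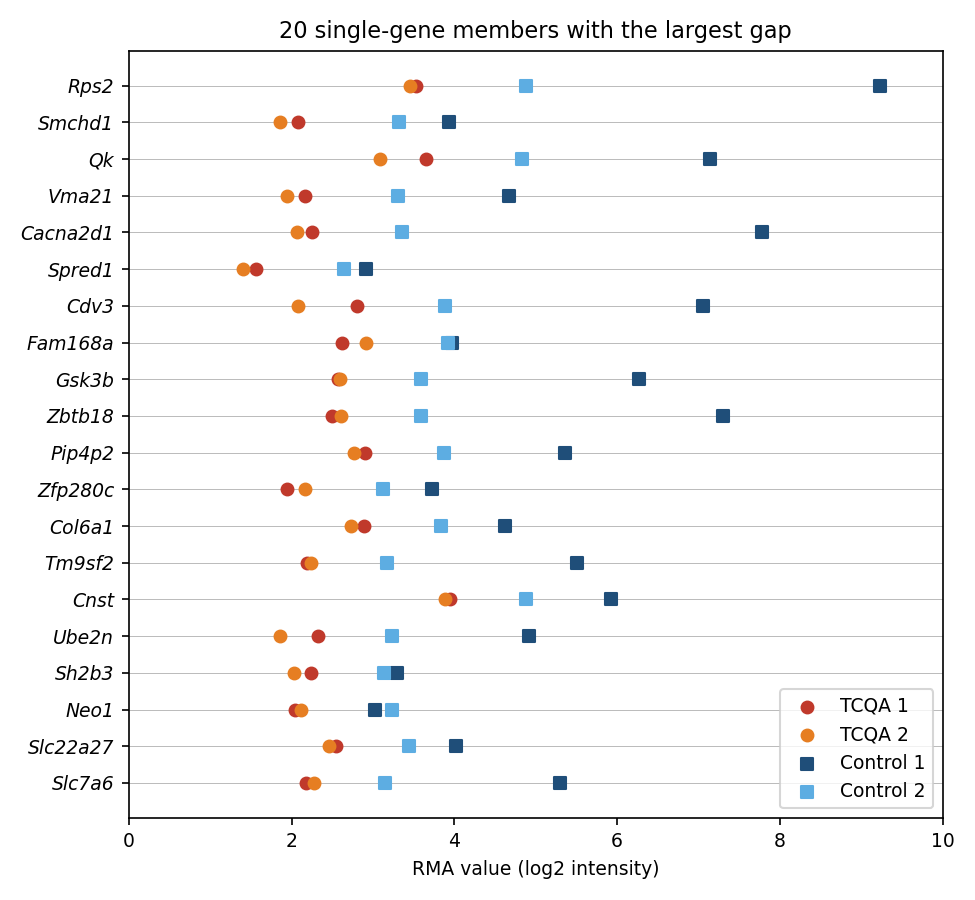
RMA values (log2 intensity, horizontal axis) of the 20 members with a single gene name and the largest gap, from Rps2 at the top to Slc7a6, with circles for the TCQA arrays and squares for the Control arrays. In every line the circles lie left of both squares, and Control 1 lies far to the right of Control 2 for Rps2, Cacna2d1, Cdv3 and Zbtb18 but not for Fam168a, Sh2b3 or Neo1.

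The sequences upstream of Rps2, Smchd1 and Qk, the named genes with the largest gaps, and of Gsk3b, the kinase of beta-catenin, are shown as examples of the member promoters. They are the 200 bases before the annotated start, 5′ to 3′ on the strand of the gene, from RefSeq on GRCm38.p6: Rps2 at chr17:24719863-24720062 (+), Smchd1 at chr17:71475344-71475543 (-), Qk at chr17:10319362-10319561 (-) and Gsk3b at chr16:38088801-38089000 (+). Capitals mark every match, on either strand, to any of 7 motifs: the TATA box core TATAAA, the letters CCAAT of the box of that name, the GC box core GGGCGG, the E-box CACGTG, the TCF core ATCAAAG, the AP-1 motif TGACTCA and the cyclic AMP element TGACGTCA. The longer motifs do not hold the shorter ones.
Rps2: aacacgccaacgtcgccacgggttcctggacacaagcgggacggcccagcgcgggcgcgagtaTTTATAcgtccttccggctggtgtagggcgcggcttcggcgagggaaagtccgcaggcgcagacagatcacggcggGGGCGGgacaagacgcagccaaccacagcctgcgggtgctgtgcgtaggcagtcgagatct
Smchd1: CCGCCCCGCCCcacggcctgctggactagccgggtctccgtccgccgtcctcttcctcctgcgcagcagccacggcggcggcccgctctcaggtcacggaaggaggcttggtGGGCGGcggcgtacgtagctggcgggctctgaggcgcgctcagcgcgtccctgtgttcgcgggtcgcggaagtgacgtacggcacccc
Qk: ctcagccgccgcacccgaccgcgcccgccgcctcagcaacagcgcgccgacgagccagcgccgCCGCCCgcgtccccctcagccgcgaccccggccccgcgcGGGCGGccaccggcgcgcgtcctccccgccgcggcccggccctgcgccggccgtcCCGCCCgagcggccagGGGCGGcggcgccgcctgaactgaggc
Gsk3b: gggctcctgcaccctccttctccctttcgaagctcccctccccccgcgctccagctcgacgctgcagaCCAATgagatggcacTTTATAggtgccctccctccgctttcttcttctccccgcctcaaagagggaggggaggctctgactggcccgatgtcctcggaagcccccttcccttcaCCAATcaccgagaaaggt
The Rps2, Smchd1 and Qk stretches held GGGCGG, the core of the GC box, at 1, 3 and 4 places, and 2 of the Smchd1 matches overlap each other by 1 base. The Gsk3b stretch held none, and had CCAAT at 2 places and TATAAA on the opposite strand, which the Rps2 stretch held as well. The G and C share was 66.5% for Rps2, 74% for Smchd1, 86% for Qk and 62% for Gsk3b.

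Upstream windows of 250 bases were found in RefSeq for 50 of the 57 member genes. GGGCGG occurred on either strand in the windows of 30 of them (60%), against 49.9% of the 13605 array genes with a window and 32.9% of all 27025 genes. CCAAT was in 24% of the member windows, against 35.9% of array genes and 34.5% of all genes. TATAAA was in 12%, against 9.26% and 13.0%, and CACGTG, the E-box, was in 12%, against 7.58% and 6.05%. ATCAAAG, the core to which the TCF partners of beta-catenin bind, was in 0 of the 50 windows, against 2.72% and 3.23%. The AP-1 motif TGACTCA and the cyclic AMP response element TGACGTCA were each in 4% of member windows, against 3.86% and 4.43% for TGACTCA and 2.29% and 1.62% for TGACGTCA. The median G and C share was 65.4% in the member windows, 57.6% in those of array genes and 52% in those of all genes. A match is a description of the letters in the window and does not show a binding site.

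The members with roles in the ribosome and translation had the highest brightness of the role groups, with a median mean value of 5.27. There were 7 such genes, with a median log2 fold change of -3.10 with all arrays and -1.03 without Control 1. Rpl30, a protein of the large ribosomal subunit, read 3.93 and 2.82 on the TCQA arrays, against 9.83 and 4.64 on the Control arrays. Rpl17, another protein of that subunit, read 4.97 and 3.93 on the TCQA arrays, against 9.46 and 5.69 on the Control arrays. Rpl22l1, a paralog of ribosomal protein L22, read 2.67 and 2.49 on the TCQA arrays, against 7.87 and 3.48 on the Control arrays. In all 3 the Control arrays were more than 3 apart, and Control 2 was nearer to the TCQA arrays than to Control 1. The translation regulators Caprin1 and Pum2, both RNA-binding proteins, and the ribosome assembly factor Bms1 showed the same order. Bms1 had the closest Control arrays of the 7, with 4.98 and 4.70 on the TCQA arrays, against 6.77 and 5.70 on the Control arrays.

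Rps2, Rpl30, Rpl17 and Rpl22l1 were 4 of 135 probe sets of cytosolic ribosomal proteins (2.96%, beside 0.198% of all probe sets). Of these 135, 36 (26.7%) had both TCQA arrays below both Control arrays, beside 10.9% of all probe sets, and 2 (1.48%, beside 17.9%) had both above. The median log2 fold change of the list was -2.63 with all arrays and -0.05 without Control 1. Its median value was 2.93 on TCQA 1 and 2.79 on TCQA 2, against 8.99 on Control 1 and 2.89 on Control 2, so that apart from Control 1 the list stood near the array medians. Ribosomal genes have many near-identical pseudogene copies, and probes of such sets can read several of them.

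Among the genes of ubiquitin and SUMO conjugation and protein folding, 6 were members, with a median log2 fold change of -1.95 with all arrays and -0.95 without Control 1. Ppia, the abundant prolyl isomerase cyclophilin A, read 3.90 and 3.70 on the TCQA arrays, against 8.84 and 4.75 on the Control arrays. Ube2d3, a ubiquitin-conjugating enzyme, read 4.49 and 4.54 on the TCQA arrays, against 7.54 and 5.33 on the Control arrays. Sumo2, a ubiquitin-like modifier, read 4.30 and 4.02 on the TCQA arrays, against 7.54 and 5.10 on the Control arrays. These 3 were among the 10 brightest single-gene members, and their TCQA arrays differed by 0.28 for Sumo2 and less for the others. Ube2n, the enzyme that builds lysine-63 ubiquitin chains, read 2.32 and 1.86 on the TCQA arrays, against 4.92 and 3.23 on the Control arrays. Ankzf1, which acts in ribosome quality control, had near-equal pairs, with 2.82 and 2.84 on the TCQA arrays, against 3.65 and 3.63 on the Control arrays.

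Chromatin, DNA repair and transcription was the role of 10 members, and 4 of these had Control arrays within 0.7 of each other. Their median log2 fold change was -1.66 with all arrays and -1.02 without Control 1. Zbtb18, a zinc finger repressor of transcription, read 2.50 and 2.60 on the TCQA arrays, against 7.29 and 3.59 on the Control arrays. Zfp280c, another zinc finger protein, read 1.95 and 2.17 on the TCQA arrays, against 3.72 and 3.12 on the Control arrays. Tdg, the thymine DNA glycosylase of base excision repair and DNA demethylation, was one of the 6 members with Control 1 as the lower Control array, with 2.57 and 2.39 on the TCQA arrays, against 3.29 and 3.48 on the Control arrays. Tdg and Zfp280c thus differed from Zbtb18 in the spread of the Control arrays, although their gaps were 0.72, 0.95 and 0.98. Zbtb18 and Zfp280c were 2 of 599 probe sets of zinc finger genes (0.334%, beside 0.198% of all probe sets). Of that list 90 (15.0%, beside 10.9% of all) had both TCQA arrays below both Control arrays and 97 (16.2%, beside 17.9%) had both above. Top1, DNA topoisomerase I, read 3.92 and 3.68 on the TCQA arrays, against 6.26 and 4.64 on the Control arrays.

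With 12 genes, the secretory pathway, endosome and lysosome formed the largest of the role groups, for which no count over all genes was made. Pip4p2, a phosphatase of phosphoinositides on late endosomes and lysosomes, read 2.91 and 2.77 on the TCQA arrays, against 5.36 and 3.87 on the Control arrays. Tm9sf2, a transmembrane protein of the Golgi, read 2.19 and 2.24 on the TCQA arrays, against 5.51 and 3.18 on the Control arrays. Cnst, or consortin, which takes part in the transport of connexins to the plasma membrane, read 3.95 and 3.88 on the TCQA arrays, against 5.93 and 4.88 on the Control arrays. The TCQA arrays differed by 0.14 for Pip4p2 and less for the other 2 genes, and the Control arrays were between 1.05 and 2.34 apart. Gbf1, an exchange factor for ARF at the Golgi, read 2.91 and 2.85 on the TCQA arrays, against 3.82 and 3.77 on the Control arrays. Retreg1, a receptor for autophagy of the endoplasmic reticulum, showed the widest Control spread of the group, with 2.13 and 2.41 on the TCQA arrays, against 7.74 and 3.26 on the Control arrays. Over the 12 genes the median log2 fold change was -1.63 with all arrays and -0.97 without Control 1.

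Signaling proteins made up 9 members. Gsk3b, the kinase that phosphorylates beta-catenin in the destruction complex, read 2.57 and 2.60 on the TCQA arrays, against 6.26 and 3.59 on the Control arrays. Its log2 fold change was -2.35 ± 0.95 (moderated SE, n = 2 arrays per group) with all arrays and -1.01 without Control 1. It was the 1 member among 104 probe sets of Wnt signaling (0.962%, beside 0.198% of all). Of these 104, 16 (15.4%, beside 10.9% of all) had both TCQA arrays below both Control arrays and 14 (13.5%, beside 17.9%) had both above. The median log2 fold change of that list was 0.08 with all arrays and 0.00 without Control 1. Pik3ca, the catalytic subunit of phosphatidylinositol 3-kinase, read 3.58 and 2.80 on the TCQA arrays, against 5.46 and 4.36 on the Control arrays. Sh2b3, the adaptor also called Lnk that restrains cytokine signaling, read 2.24 and 2.02 on the TCQA arrays, against 3.30 and 3.14 on the Control arrays. Neo1, the netrin and repulsive guidance molecule receptor neogenin, read 2.04 and 2.12 on the TCQA arrays, against 3.02 and 3.23 on the Control arrays. For Sh2b3 and Neo1 the Control arrays lay within 0.21 of each other, and the fold change without Control 1 was -1.01 and -1.15.

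Matrix and lipid metabolism supplied 4 members. Col6a1, a chain of the collagen VI microfibrils of the dermis, read 2.89 and 2.73 on the TCQA arrays, against 4.63 and 3.83 on the Control arrays. It was the 1 member among 103 probe sets of the dermal matrix (0.971%, beside 0.198% of all). The probe sets of Col6a2 and Col6a3, the chains that assemble with it, overlapped between the groups. That of Col6a3 read 3.63 and 3.70 on the TCQA arrays, against 4.72 and 3.57 on the Control arrays. Lpl, the lipoprotein lipase of fat and muscle capillaries, read 3.65 and 3.63 on the TCQA arrays, against 8.31 and 4.43 on the Control arrays. It was the 1 member among 42 probe sets of the adipocyte list (2.38%, beside 0.198% of all), and its Control arrays were 3.89 apart. Ugdh, which makes the UDP-glucuronic acid used for hyaluronan, and Hsdl2, a hydroxysteroid dehydrogenase-like protein, had gaps of 0.75 and 0.81.

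Membrane transporters and the remaining genes were few. Slc22a27, of the organic anion transporter family, read 2.55 and 2.46 on the TCQA arrays, against 4.02 and 3.45 on the Control arrays. Slc7a6, an amino acid transporter, read 2.18 and 2.27 on the TCQA arrays, against 5.30 and 3.14 on the Control arrays. Cacna2d1 was the 1 member among 349 probe sets of ion channels and synapses (0.287%, near the 0.198% of all). Fam168a had the most alike Control arrays of the genes with a gap of 1 or more, with 2.61 and 2.92 on the TCQA arrays, against 3.98 and 3.93 on the Control arrays. Cdv3 read 2.81 and 2.08 on the TCQA arrays, against 7.06 and 3.88 on the Control arrays. Nudt21, a subunit of the cleavage factor that selects polyadenylation sites, had a gap of 0.72, and Serpinb3a, a serine protease inhibitor of squamous epithelia, one of 0.76.

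The lists of hair and pigment genes held 0 members, and at the 0.198% of all probe sets a list of their length holds less than 1 on average. The 98 probe sets of keratins and keratin-associated proteins held 0 members, as did the 73 of melanocytes and pigment and the 51 of hair follicle regulators. Of the pigment list, 8 (10.96%) had both TCQA arrays below both Control arrays, near the 10.9% of all probe sets, and 10 (13.7%, beside 17.9%) had both above. In all, 6 of the 33 gene lists held a member, 10 members were in a list, and 47 member genes were in none. The genes tabulated by the study, which were chosen on these arrays and are no independent evidence, held 0 members among 36 probe sets of genes given as higher and 33 of genes given as lower. At the 0.198% of all probe sets, these counts of 0 do not set the lists apart.

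The 30 members whose Control arrays differed by less than 0.7 give the values that depend least on Control 1. Among these, 14 name a single gene: Smchd1, Spred1, Fam168a, Zfp280c, Sh2b3, Neo1, Slc22a27, Gbf1, Rhbdd1, Ankzf1, Tdg, Pld3, Ubp1 and Snx24. For the 14 the log2 fold change lay between -1.66 and -0.81 with all arrays, and between -1.34 and -0.72 without Control 1. Their TCQA values lay between 1.40 and 2.92, against 2.91 to 4.02 on Control 1 and 2.65 to 3.93 on Control 2. Their median mean value was 3.01, against 3.52 for all named members and 2.56 for all probe sets. The subset was formed after its values were seen and was given no test. In Fam168a, Spred1, Neo1, Gbf1 and Ankzf1 a brighter probe set of the gene did not keep the order of the member. A brighter one of Tdg and another of Neo1 did.

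**Figure D3:**
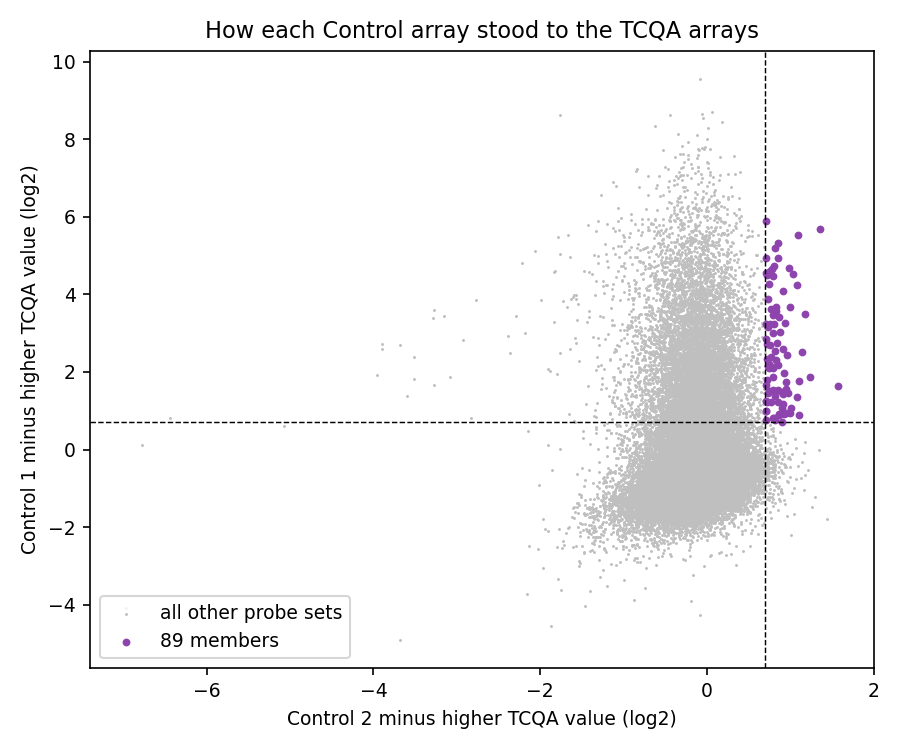
Control 2 minus the higher TCQA value (log2, horizontal axis) and Control 1 minus the higher TCQA value (log2, vertical axis) for every probe set, with the 89 members in purple and the rule's threshold of 0.7 as dashed lines. The members lie in a narrow band right of the vertical line, up to 1.57, and spread up to nearly 6 along the vertical axis, where many other probe sets also lie.

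A gap of at least 0.7 to the TCQA arrays was common for Control 1 and rare for Control 2. With Control 1 left out of the rule, 292 probe sets met it (0.648%), and with Control 2 left out 8621 did, and the 89 members are those common to both. Leaving out 1 TCQA array gave 969 probe sets without TCQA 1 and 208 without TCQA 2. At the edge of the rule, the 3 members just inside were 1421027_PM_a_at, Snx24 and 1423592_PM_at, with gaps of 0.706, 0.704 and 0.704. The 3 probe sets just outside were 1438761_PM_a_at, Slc25a36 and 1434888_PM_a_at, with gaps of 0.6996, 0.697 and 0.696. Snx24, a sorting nexin, read 2.69 and 2.32 on the TCQA arrays, against 3.69 and 3.39 on the Control arrays. Slc25a36, a mitochondrial nucleotide carrier, read 1.21 and 1.23 on the TCQA arrays, against 5.22 and 1.93 on the Control arrays.

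The number of members was within the range that the same rule gave for pairs of arrays that cut across the treatment. Both TCQA arrays were lower than both Control arrays in 89 probe sets (0.198%) and higher in 44 (0.0977%). After a further quantile normalization the counts were 97 lower and 128 higher, so the excess of lower probe sets depends on the scaling. For TCQA 1 and Control 1 set against TCQA 2 and Control 2, the first pair was lower in 38 probe sets (0.0844%) and higher in 64 (0.142%). For TCQA 2 and Control 1 set against TCQA 1 and Control 2, the first pair was lower in 849 probe sets (1.89%) and higher in 351 (0.779%). Of the 6 counts, that of the members was the third highest. The largest gap of a member, 1.57, compared with 1.58 and 1.79 for the second pairing and 2.50 and 6.26 for the last. Each pairing uses the same 4 arrays, so the counts are not independent and no p-value is given.

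**Figure D4:**
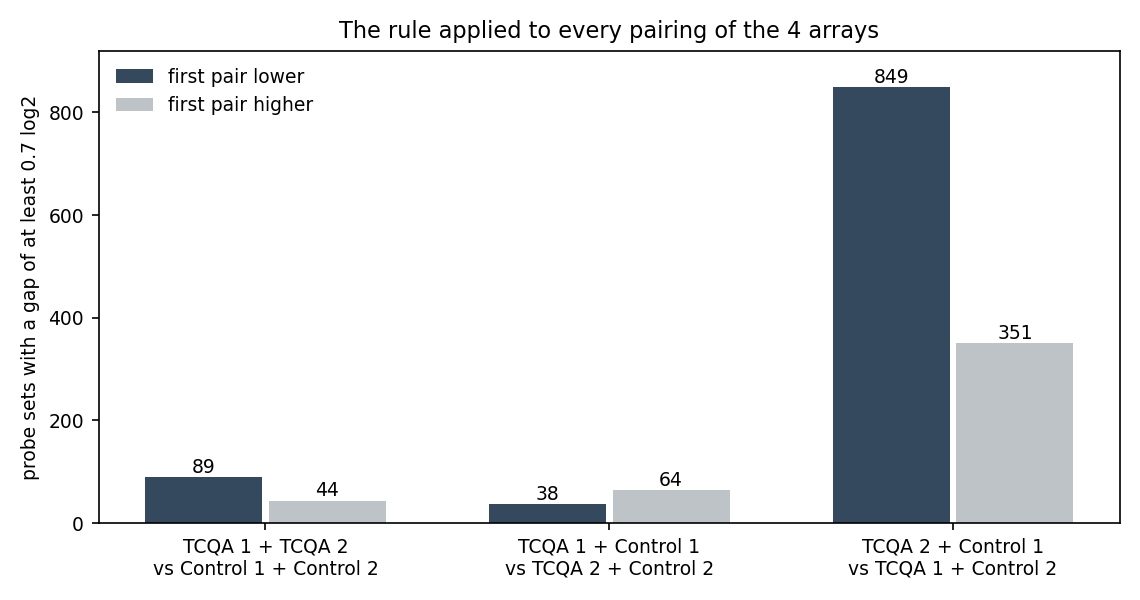
Number of probe sets with a gap of at least 0.7 log2 (vertical axis) for the 3 ways to set 2 of the 4 arrays against the other 2, with dark bars for the first-named pair lower and light bars for it higher. The members are the dark bar of 89 at the left, which is above 44, 38 and 64 but below 351 and 849.

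Without a margin the TCQA arrays were more often above the Control arrays than below them. Both TCQA values lay below both Control values in 4892 probe sets (10.9%) and above them in 8062 (17.9%). A margin of 1 or more was met by 11 members and by 1 probe set with both TCQA arrays higher. The pairings across the treatment gave 5 lower and 11 higher for TCQA 1 with Control 1, and 212 lower and 121 higher for TCQA 2 with Control 1. With limma, 0 of the 45037 probe sets were lower at an adjusted p under 0.05 (0%), and none was higher, the lowest adjusted p being 0.923. At an unadjusted p under 0.05 there were 141, of which 66 were lower. An unmoderated test likewise gave 0 at an adjusted p under 0.05, and 754 at an unadjusted p under 0.05. At a fold change of at least 2 and an unadjusted p of at most 0.05, the thresholds of the study, 55 probe sets were lower (0.122%) and 61 were higher, and 42 of the 55 were members. Since the rule chose the members on the same contrast, that share carries no further information. With 2 arrays per group, the smallest p of an exact permutation test is 0.333.

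The other probe sets of the member genes, which the rule did not select, mostly did not repeat the pattern. There were 91 of them for 38 genes, while 19 genes had the member alone. With all arrays 63 of the 91 (69.2%) had a negative log2 fold change, beside 38.9% of all probe sets. Without Control 1 it was 47 (51.6%), beside 53.3%. Their median log2 fold change was -0.17 with all arrays and -0.02 without Control 1. Both TCQA arrays were below both Control arrays in 18 (19.8%, beside 10.9% of all) and above them in 9 (9.89%, beside 17.9%). None of the 91 had a gap of 0.5 or more, beside 286 of all 45037 probe sets, which include the 89 members. The choice of members left no gap of 0.7 or more among the 91, so this absence does not set them apart. The other probe sets use the same 4 arrays as the members, and those of 1 gene can share transcripts. Of them, 71 were dimmer than the member of their gene, which the choice of members by high Control values favours.

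In 13 of the 38 genes a second probe set kept the order of the member at a smaller gap. For Qk, 1417073_PM_a_at read 2.65 and 2.56 on the TCQA arrays, against 5.97 and 3.15 on the Control arrays, and the other 5 probe sets overlapped. For Vma21, 1434233_PM_at read 1.69 and 1.48 on the TCQA arrays, against 2.54 and 2.18 on the Control arrays. For Pik3ca, 1423144_PM_at read 2.44 and 2.23 on the TCQA arrays, against 3.24 and 2.84 on the Control arrays. These 3 had gaps of 0.49, 0.49 and 0.40. Ube2d3 had the most such probe sets, 3 of its other 6, at gaps of 0.17, 0.36 and 0.19. For Rps2, 1431765_PM_a_at was brighter than the member and read 6.42 and 5.91 on the TCQA arrays, against 9.55 and 6.57 on the Control arrays, a gap of 0.16. Its other probe set, 1431766_PM_x_at, was also brighter than the member but overlapped. That one read 5.84 and 4.56 on the TCQA arrays, against 8.64 and 5.73 on the Control arrays.

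In other genes the second probe sets went another way. For Sumo2, 1415781_PM_a_at was far brighter than the member and overlapped, with 8.57 and 6.98 on the TCQA arrays, against 9.54 and 7.61 on the Control arrays. For Fam168a, 1434375_PM_at read 4.69 and 4.41 on the TCQA arrays, against 3.44 and 4.78 on the Control arrays. For Spred1 none of the other 4 probe sets was below both Control arrays on both TCQA arrays, and the fold changes without Control 1 lay between 0.05 and 0.31. Gsk3b was mixed: 1437001_PM_at read 3.56 and 3.54 on the TCQA arrays, against 3.74 and 3.81 on the Control arrays, a gap of 0.18, while 1434439_PM_at read 2.44 and 2.79 on the TCQA arrays, against 2.17 and 2.42 on the Control arrays. For Cdv3, 1442499_PM_at read 4.82 and 4.66 on the TCQA arrays, against 3.67 and 4.48 on the Control arrays. In Sumo2, Fam168a, Spred1 and Cdv3 a probe set brighter than the member thus did not keep its order. The same held in Rps2, Ankzf1, Gbf1, Neo1, Phip, Dnajc10, Caprin1, Wac and Hsdl2. For Ankzf1, 1419818_PM_x_at read 4.58 and 4.88 on the TCQA arrays, against 4.40 and 4.84 on the Control arrays. A brighter probe set that kept the order was found in Rps2, Neo1 and Tdg.

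**Figure D5:**
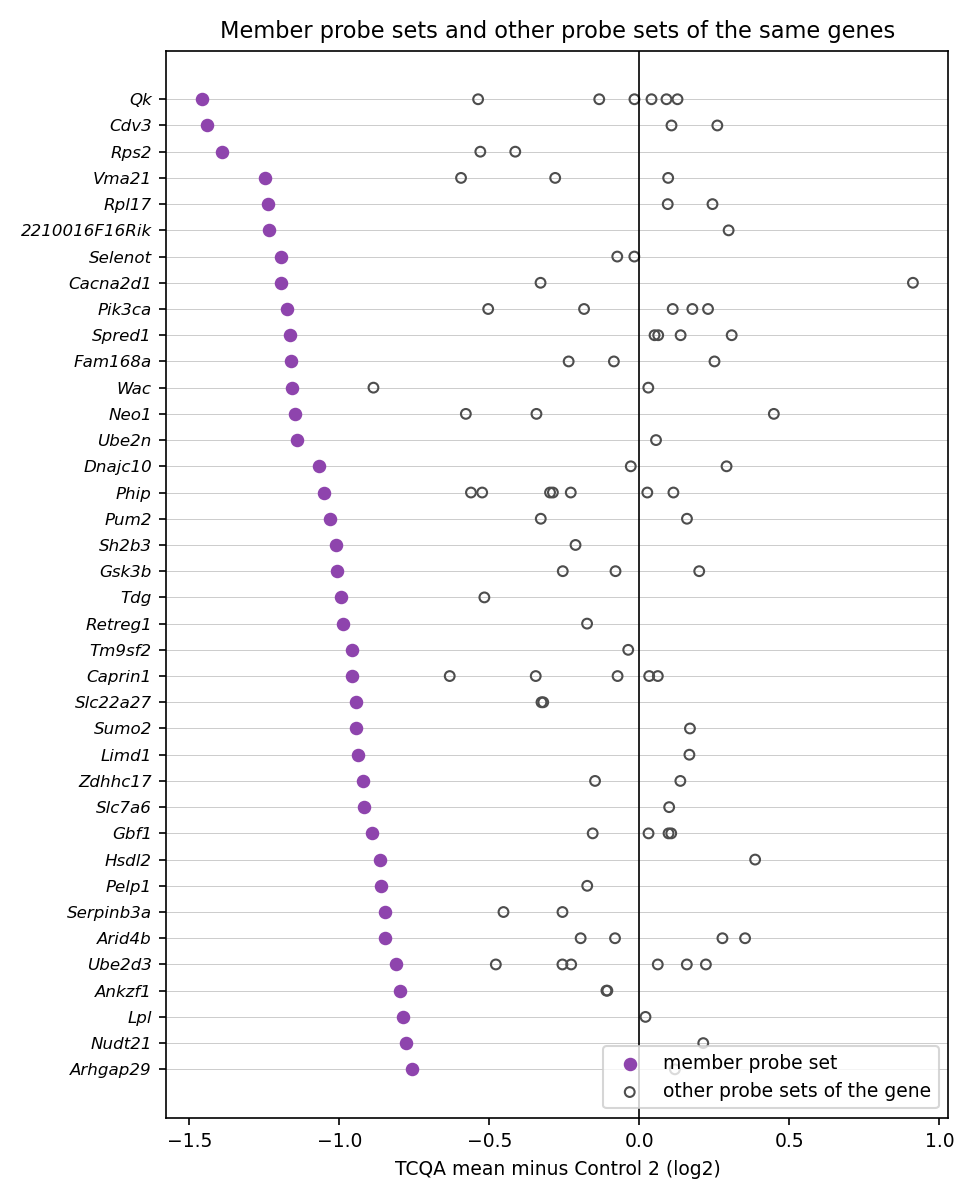
Mean of the TCQA arrays minus Control 2 (log2, horizontal axis) for the 38 member genes that have other probe sets, with a filled circle for the member and open circles for the others. The filled circles lie between -1.46 and -0.76, and the open circles scatter on both sides of 0, with 47 of 91 below it.

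Unnamed members made up 30 of the 89. The largest gap among these was that of 1437729_PM_at, 1.11, with 2.39 and 1.99 on the TCQA arrays, against 4.16 and 3.50 on the Control arrays. The unnamed members had a median log2 fold change of -1.51 with all arrays and -0.96 without Control 1, close to the -1.75 and -0.99 of the named ones. Their Control arrays differed by less than 0.7 in 14 of 30. By the type of probe set, 65 members (73.0%) had the plain suffix, against 80.1% of all probe sets. The suffixes _a_, _s_ and _x_ mark probe sets that can match more than 1 transcript or sequence, which for _a_ can be transcripts of the same gene. They made up 13, 7 and 4 members, or 14.6%, 7.87% and 4.49%, beside 9.83%, 4.64% and 5.42% of all probe sets.

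Identical values recurred on the arrays. On TCQA 2, 719 probe sets shared the value 1.86, against at most 194 for a single value on TCQA 1, 63 on Control 1 and 168 on Control 2. The TCQA 2 value of 3 members, Smchd1, Ube2n and 1454652_PM_at, was this shared one. In all, 7 members (7.87%) had a TCQA 2 value held by 100 or more probe sets, beside 6.0% of all probe sets, and 2 had such a value on TCQA 1. In bulk skin, fewer cells of a type and less RNA per cell cannot be told apart.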

How the data were processed

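The values the authors deposited are on the log2 scale, with 1 number for each probe set on each array. They come from RMA, a method that corrects the background, normalizes and summarises the probes. The deposited arrays nevertheless did not share the same distribution. A log2 value of 8 or more was held by 522 probe sets on Control 1, against 31 on TCQA 1, 23 on TCQA 2 and 26 on Control 2. RMA, Transcriptome Analysis Console and Affymetrix Expression Console are named in the processing notes of the submitters. Every deposited column was mapped to a labelled array, and 0 were left out. The 104 Affymetrix control probe sets were removed, leaving 45037. Log2 values carry no read depth, and the number of arrays, 2 per group, limits the precision.

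Gene names came from the platform annotation: 28898 name 1 gene, 551 name several, 15588 are unnamed here, and 28689 of the single-gene ones had an identifier in the RefSeq table (GRCm38.p6), which changed 0 symbols. The members and the gene lists were chosen with earlier results of these data known, and the role groups were made after the values were seen. Named genes are the 20 single-gene members with the largest gap, the 10 brightest, every member in a gene list (up to 5 per list), any among the genes tabulated by the study, and the 3 probe sets on each side of the threshold. Other genes named as examples of a role or of a second probe set were picked after their values were seen.

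The limma test (version 3.58.1 in R 4.3.3, lmFit and eBayes, 2 residual degrees of freedom, two-sided) was fitted on all 45037 probe sets with Benjamini-Hochberg adjustment, without a block. It was also run on simulated arrays, whose mean and spread came from Control 2, TCQA 1 and TCQA 2. None of these stood apart as Control 1 does, so the simulation does not show how the test behaves with such an array. Fold changes are TCQA minus Control. Promoter windows were read with Python 3.11.15 and pandas 2.3.3. The same-numbered arrays did not deviate together (r = -0.124 between the TCQA and Control differences, 2 pairs), so the numbers were not used as pairs. Alternatives were a further quantile normalization, median centring, gaps of 0.5 and 1, and dropping dim probe sets or those with the suffixes _a_, _s_ and _x_. Others were a replicate block, an unmoderated test, limma's trend and robust options, and leaving out each array.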

Additional observations from a re-analysis of the deposited data

Results flagged for a closer look

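The bacterial hybridization controls, spiked into every sample and outside all comparisons above, were higher on both TCQA arrays than on both Control arrays for 5 of 9 probe sets. The lower TCQA value exceeded the higher Control value by 0.475 for AFFX-BioB-5_at, 0.347 for AFFX-BioB-3_at, 0.316 for AFFX-BioB-M_at, 0.0432 for AFFX-BioC-3_at and 0.0495 for AFFX-BioC-5_at. AFFX-BioB-5_at read 8.54 and 10.19 on the TCQA arrays, against 4.26 and 8.06 on the Control arrays. Over the 9 probe sets the median was 10.21 on TCQA 1 and 10.68 on TCQA 2, against 6.45 on Control 1 and 10.17 on Control 2. On Control 1 the controls thus ran opposite to the members, being dimmest on the array where the members were brightest. On Control 2 their median was close to that of TCQA 1. For the AFFX-BioDn and AFFX-CreX probe sets Control 2 lay between the TCQA arrays. The part of the controls in the member values was not tested.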

How the results depend on the processing

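The member count stayed within 1.5 times of 89 under a further quantile normalization (97, sharing 74 members) and median centring (73, sharing 69). Dropping dim probe sets left 87 members, and dropping those with the suffixes _a_, _s_ and _x_ left 65. The rule reads each probe set alone, so dropping probe sets can only remove members and does not test the count. With all probe sets kept, the count depended on the margin and on the arrays used. It was 286 at a gap of 0.5 and 11 at a gap of 1, and between 208 and 8621 when 1 array was left out. A smaller margin or a missing array can only add members, and a larger margin can only remove them. The direction of these changes was thus fixed in advance. No probe set was lower at an adjusted p under 0.05 under any alternative with Control 2 in it; leaving out 1 array gave between 0 and 7231, with 7231 without Control 2, where Control 1 is the lone control and is assumed to vary like the TCQA arrays. The 55 probe sets lower at the thresholds of the study became 100 after quantile normalization (with 182 higher, against 61), 16 without dim probe sets, 85 without cross-hybridizing suffixes, 14 with the unmoderated test, and between 0 (without TCQA 2) and 7979 (without Control 2) when 1 array was left out. Without Control 1 the count was 107. With the replicate block it was 227, and 0 at an adjusted p under 0.05. Crossing the numbers, chosen after seeing the data, gave 53 and 0. The median fold change of the members lay between -2.43 and -0.99 when 1 array was left out. The rule keeps each member lower by at least 0.7 in every such case, so this range does not test the members. The number of other probe sets with a negative fold change then lay between 47 and 63. The median brightness of the members lay between 2.80 and 3.57. Median centring puts brightness on a scale relative to the array median, at 0.79. The causes of these changes were not tested. With 2 arrays per group and 1 of them far from the other 3, no value here separates treatment from array.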
